A study of Mus musculus with 6 samples.

Results

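The 10 genes described here build and sulfate glycosaminoglycans, and all 10 were found by gene symbol among the 35976 genes of the count table. They are Xylt1, Csgalnact1, Chsy1, Chsy3, Chpf, Chst11, Slc26a2, Papss2, Ext1 and Has2. They were measured by sequencing of polyadenylated RNA in mouse chondrocytes, the cells that make cartilage matrix, from hind limb articular cartilage of C57BL/6 x 129S4/SvJae embryos at day 18.5. Cells of both groups were expanded as a monolayer for 16 population doublings in medium with serum and an ascorbate phosphate, and both were given doxycycline at 2 µg/ml to induce an H3.3 histone transgene. For H3K9M (replicates 1, 3 and 5) the transgene carried methionine at lysine 9, and the labels describe methylation of that residue as suppressed. For H3WT (replicates 1, 2 and 4) it was wild-type H3.3. The promoter of the transgene, and whether libraries came from separate animals or cultures, are not given in the sources used here, so p-values measure only the spread between these libraries.

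Glycosaminoglycans are long, negatively charged sugar chains, and their sulfate groups hold the water that lets cartilage resist compression. Chondroitin sulfate and heparan sulfate are built in the Golgi on a serine of a core protein, first as a short linkage region started by a xylosyltransferase and then as a repeating polymer that sulfotransferases modify. Every sulfate group comes from a donor, PAPS, made in the cell from imported inorganic sulfate. Hyaluronan is different: it is made at the cell surface, carries no sulfate and has no core protein. In cartilage, aggrecan, the product of Acan, carries most of the chondroitin sulfate and binds hyaluronan.

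The libraries held 15113675 to 19606082 counts, and the 10 genes had between 152 counts (Chsy3 in H3K9M replicate 3) and 4359 counts (Papss2 in H3WT replicate 2). For Has2 in H3WT, counting error alone was 4.80% to 5.33% of a value, no smaller than the SD between those replicates (4.44% of the mean). In H3K9M it was 6.04% to 6.68% against an SD of 11.1%. Values below are counts scaled to a common library size by TMM and given in the usual unit CPM. Of 12 chondrocyte markers 11 were in the table and none was at or under 3 counts in all libraries. Their summed level was 7298 to 11400 CPM in H3K9M and 7201 to 18880 CPM in H3WT. H3WT replicate 2 stood apart, with the highest sum of chondrocyte markers and the lowest sum of 8 fibroblast markers (9979 CPM against 12190 to 34930 CPM in the other 5 libraries). H3K9M replicate 3 lay beside it on the first principal component of all tested genes (51 and 49.1, against -56.2 to 10.4 for the other 4). On the second component these libraries lay at opposite ends (39.8 and -71.5). There H3K9M stood at 19 to 39.8 and H3WT at -71.5 to -11.4. In bulk RNA, fewer cells of a type and less RNA per cell cannot be told apart.

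None of the 10 genes passed the test between the groups, and 1 of them, Has2, had all 3 H3K9M values below all 3 H3WT values. Of all 13761 tested genes, 0 (0%) had an adjusted p under 0.05 by the quasi-likelihood test of edgeR with Benjamini-Hochberg adjustment, 12.2% had an unadjusted p under 0.05, and in 19.4% the groups did not overlap. The DESeq2 Wald test called 365 genes (2.38%), limma-voom 0, and edgeR without H3WT replicate 2 called 91 (0.639%). None of the 10 was among them. Of the 10 genes, 8 had a log2 fold change (H3K9M minus H3WT) below 0, against 50.4% of all tested genes, with a median of -0.32 against -0.0029 over all genes. Without H3WT replicate 2 that count was 5 of 10, against 47% of all genes. The chondrocyte markers were lower too: all 11 tested had a log2 fold change below 0 (median -1.03), and 2 of them had an unadjusted p under 0.05. Without H3WT replicate 2, 9 of these 11 were below 0, with a median of -0.23. The part of these markers in the values of the 10 genes was not tested. No gene of the 10 was at or under 3 counts in any library, and all passed the filter on low counts.

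**Figure D1:**
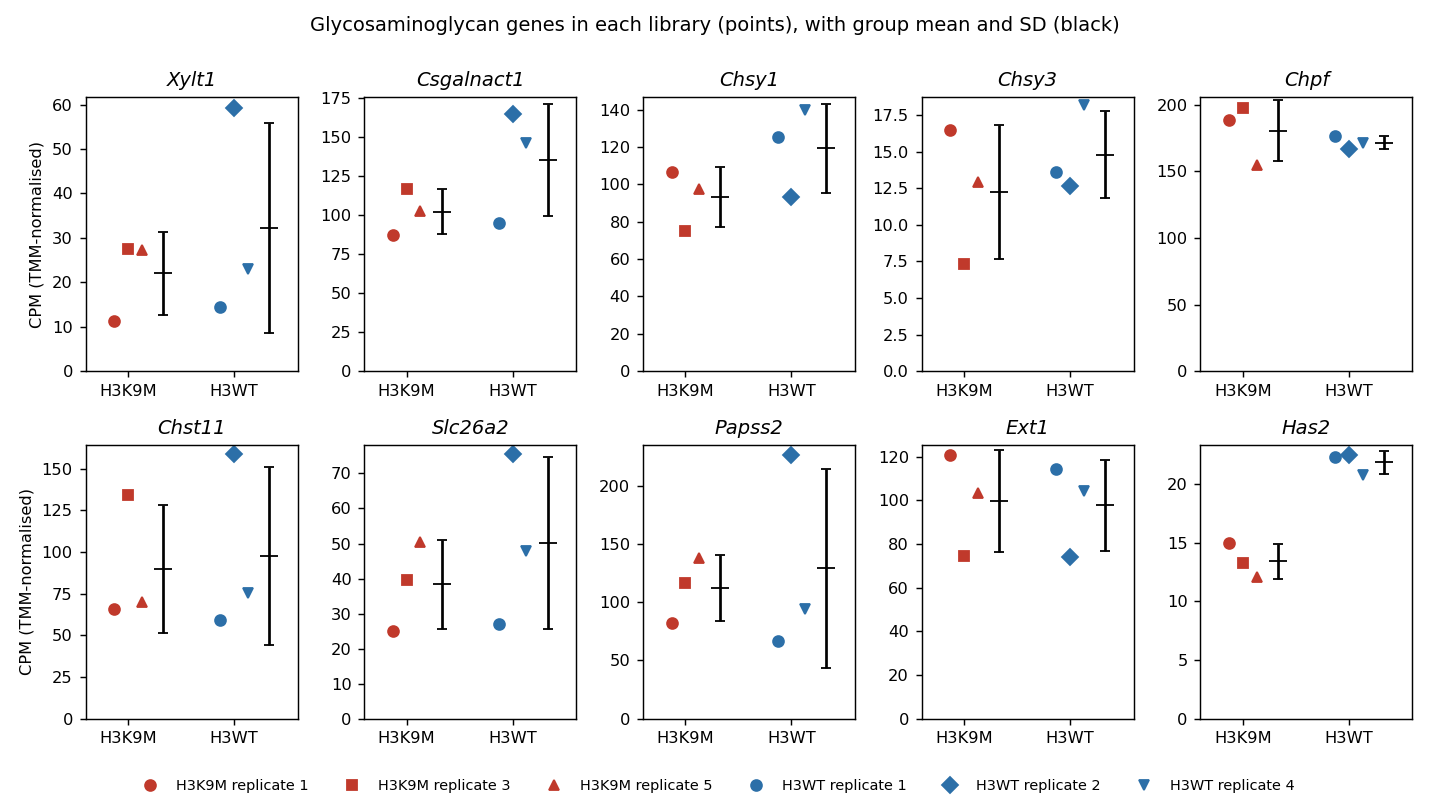
CPM (y axis, from 0) of the 10 genes in each library, with H3K9M in red and H3WT in blue, a symbol for each replicate, and the mean and SD (n = 3) of each group in black. Has2 is the gene whose groups do not overlap (12.0 to 15.01 against 20.7 to 22.5 CPM); in Xylt1, Chst11, Slc26a2 and Papss2 the highest of the 6 values is that of H3WT replicate 2.

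Has2, the main synthase of hyaluronan in mesenchymal cells, had the clearest separation. It stood at 15.01, 13.2 and 12.0 CPM in H3K9M replicates 1, 3 and 5 and at 22.3, 22.5 and 20.7 CPM in H3WT replicates 1, 2 and 4. The highest H3K9M value was thus below the lowest H3WT value, and the spread within each group was small. The means were 13.4 ± 1.49 CPM and 21.9 ± 0.969 CPM (SD, n = 3 each), a level 1.63 times lower in H3K9M (log2 fold change -0.70, standard error 0.18). The unadjusted p was 0.00496 and the adjusted p 0.236 (edgeR), so the difference did not pass the correction for all genes. The log2 fold change lay between -0.79 and -0.62 under all 14 other settings, which include leaving out each library, and the adjusted p between 0.107 and 0.503. Has2 (chr15:56665627-56694539, minus strand, GRCm38) shares exon sequence with Has2os on the opposite strand, which had at most 9 counts in a library.

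The other hyaluronan synthases were low: Has1 reached 3.04 CPM and Has3 0.825 CPM at most. Has1, with 0 to 63 counts in a library, had a log2 fold change above 0 with overlapping groups (1.63, standard error 1.22, adjusted p 0.631, edgeR). Has3 did not pass the filter on low counts. Has2 made up 81.1% to 97.4% of the summed level of the 3 synthases per kilobase of exon in each library, and the groups overlapped in that share. Sums of some marker lists of other cell types also differed between the groups. The 8 skeletal muscle markers summed to 13.6 to 100.5 CPM in H3K9M and 1.24 to 6.80 CPM in H3WT. Myf5 and Pax7 were at or under 3 counts in all libraries. Of those 8, 3 were tested, all higher in H3K9M without overlap (median log2 fold change 5.88). All 3 had an unadjusted p under 0.05 and 0 an adjusted p under 0.05 (edgeR). Over all tested genes, 6.42% were higher at that unadjusted p and 10.7% higher without overlap. The 3 tendon markers summed to 93.6 to 118 CPM against 57.6 to 85.5 CPM but did not share a sign. Of the 3, 2 were higher and 1 lower in H3K9M, with 1 in each direction without overlap. Their median log2 fold change was 0.38, and -0.14 without H3WT replicate 2. The 7 macrophage and blood markers summed to 8.04 to 16.5 CPM against 3.84 to 6.29 CPM, with Ptprc, Adgre1 and Hbb-bs at or under 3 counts throughout. Of those 7, 3 were tested, all higher in H3K9M with overlapping groups and none with an unadjusted p under 0.05. The sums overlapped between the groups for adipocyte markers (23.4 to 43.8 against 33.7 to 50.6 CPM) and osteoblast markers (47.6 to 75.2 against 51.5 to 120 CPM). Of the 5 tested osteoblast markers 4 were lower in H3K9M (median log2 fold change -1.22), 2 of them with an unadjusted p under 0.05. Over all tested genes, 5.77% were lower at that p (edgeR). The osteoblast median was -1.85 without H3K9M replicate 1 and -0.58 without H3WT replicate 1. All 3 tested adipocyte markers were lower (median -0.16), none with an unadjusted p under 0.05, and the 5 endothelial markers reached 0.825 CPM at most. The part of these lists in the Has2 difference was not tested.

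Among the other genes of hyaluronan metabolism, Tmem2, a cell-surface hyaluronidase, had 86.1, 72.5 and 65.4 CPM in H3K9M replicates 1, 3 and 5 and 132, 85.2 and 130 CPM in H3WT replicates 1, 2 and 4. H3K9M replicate 1 and H3WT replicate 2 overlapped (log2 fold change -0.63, standard error 0.19, unadjusted p 0.011, adjusted p 0.279, edgeR). The hyaluronan list, which pools genes of synthesis and of turnover, held 6 tested genes with a median log2 fold change of -0.55. Of these, 2 were lower at an unadjusted p under 0.05 (edgeR), where 5.77% of all tested genes were lower. They were Tmem2 and Has2, and Has2 had already been singled out above. Without H3K9M replicate 3 and H3WT replicate 2 together, a setting chosen after the data were seen, Tmem2 was among 302 genes of 13821 (2.19%) with an adjusted p under 0.05. Cemip, named after its values were seen and needed for the breakdown of hyaluronan by fibroblasts, split the libraries and not the groups. It had 267, 28.9 and 72.9 CPM in H3K9M replicates 1, 3 and 5 and 461, 43.6 and 465 CPM in H3WT replicates 1, 2 and 4.

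The genes whose centred log2 CPM came closest to that of Has2 over the 6 libraries were Pias1, a SUMO ligase, Cand2, which binds cullins, and Eng, the TGF-beta co-receptor endoglin. Their root mean square differences from Has2 were 0.09, 0.09 and 0.09 on the log2 scale, where the median over all tested genes was 0.49. Eng, for example, had 53.9, 51.6 and 50.5 CPM in H3K9M and 77.5, 88.7 and 74.1 CPM in H3WT, also without overlap. These 3 genes were found by their likeness to Has2, so their separation is a description.

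Xylt1 (chr7:117380979-117673580, plus strand), 1 of the 2 enzymes that put the first xylose on the core protein and so start chondroitin and heparan sulfate chains, varied most between libraries. It had 11.3, 27.5 and 27.2 CPM in H3K9M replicates 1, 3 and 5 and 14.5, 59.2 and 23.1 CPM in H3WT replicates 1, 2 and 4. The highest library held 5.26 times the level of the lowest, and the groups overlapped. The SD of log2 CPM over the 6 libraries was 0.83, larger than that of 83.2% of tested genes. The log2 fold change was -0.55 (standard error 0.58, adjusted p 0.756, edgeR), and 0.24 without H3WT replicate 2. Its relative Xylt2 was steadier, and its groups did not overlap, at 48.1, 46.0 and 36.8 CPM against 58.6, 62.6 and 53.1 CPM (log2 fold change -0.41, standard error 0.15, unadjusted p 0.025, adjusted p 0.341). Xylt1 supplied 8.80% to 28.0% of the summed level of both xylosyltransferases per kilobase of exon, most of all in H3WT replicate 2.

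The enzymes that extend chondroitin did not share one pattern. Csgalnact1 (chr8:68356781-68735146, minus strand), which adds the first N-acetylgalactosamine and so commits a chain to chondroitin, had 87.4, 117 and 102 CPM in H3K9M replicates 1, 3 and 5 and 94.9, 164 and 146 CPM in H3WT replicates 1, 2 and 4. H3WT replicate 1 fell inside the range of H3K9M and the other H3WT values above it (log2 fold change -0.40, standard error 0.21, adjusted p 0.474, edgeR). The value ran from -0.60 without H3WT replicate 1 (unadjusted p 0.00741, adjusted p 0.464), to -0.23 without H3WT replicate 2.

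Chsy1, a chondroitin synthase that polymerises the chain, had 106, 75.2 and 97.6 CPM in H3K9M and 125, 93.1 and 140 CPM in H3WT. Here H3WT replicate 2 was the low library of its group, and the groups overlapped only through it (log2 fold change -0.36, standard error 0.19, adjusted p 0.474). Without it the log2 fold change was -0.50, with an unadjusted p of 0.0179 and an adjusted p of 0.191. An exon of Gm26827 overlaps Chsy1 on the opposite strand. Chsy3, its paralogue, had the lowest mean of the 10 genes per length in each group, although Xylt1 was lower in 3 of the 6 libraries. It had 16.5, 7.34 and 12.96 CPM in H3K9M and 13.6, 12.7 and 18.2 CPM in H3WT (log2 fold change -0.28, standard error 0.32, adjusted p 0.785). Its log2 fold change was 0.0008 without H3K9M replicate 3 and -0.10 without H3WT replicate 4. Chsy1 supplied 91.8% to 94.7% of the summed level of the pair per kilobase, a share that barely moved between libraries.

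Chpf (chr1:75474569-75479307, minus strand), the polymerising factor that works with the synthases, varied least of the 10 and had the highest mean per length in each group. Papss2 was above it per length in H3WT replicate 2 (60.8 against 43.3 CPM per kilobase). Chpf had 189, 198 and 155 CPM in H3K9M and 176, 167 and 172 CPM in H3WT, and the H3WT values lay inside the range of H3K9M (log2 fold change 0.07, standard error 0.13, adjusted p 0.868). The SD of log2 CPM over the libraries was 0.13, smaller than that of all but 7.64% of tested genes. Chpf2, the paralogue, had 158, 148 and 147 CPM in H3K9M and 200.1, 208 and 179 CPM in H3WT, without overlap (log2 fold change -0.38, standard error 0.11, unadjusted p 0.011, adjusted p 0.279). Chpf thus supplied 63.4%, 66.0% and 60.5% of the summed level of the pair per kilobase in H3K9M and 56.1%, 53.7% and 58.2% in H3WT. Of the 8 shares between related enzymes that were computed, this was the 1 in which the groups did not overlap, and with 3 libraries against 3 an exact two-sided permutation test cannot give a p below 0.1. By likeness over the 6 libraries, the genes closest to Chpf were Galnt1, Smn1 and Qpctl, with root mean square differences of 0.04 each on the log2 scale against a median of 0.32.

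Chst11, the sulfotransferase that adds sulfate to the N-acetylgalactosamine of chondroitin, split the libraries and not the groups. It had 65.5, 134 and 69.7 CPM in H3K9M replicates 1, 3 and 5 and 59.1, 159 and 75.1 CPM in H3WT replicates 1, 2 and 4. One library of each group, H3K9M replicate 3 and H3WT replicate 2, thus held a level well above the other 4. The log2 fold change was -0.12 (standard error 0.45, adjusted p 0.944, edgeR), 0.43 without H3WT replicate 2, -0.52 without H3K9M replicate 3 and 0.02 without both. Its share of the summed level per kilobase of Chst11, Chst12 and Chst13 was 37.0% and 37.5% in those libraries and 15.8% to 20.1% in the other 4.

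Slc26a2, the sulfate transporter of the plasma membrane whose loss causes chondrodysplasias, had 25.1, 39.7 and 50.5 CPM in H3K9M and 26.9, 75.7 and 47.9 CPM in H3WT. Both groups spanned a wide range and replicate 1 of each was the low one (log2 fold change -0.38, standard error 0.40, adjusted p 0.751; 0.05 without H3WT replicate 2). Papss2, which makes the sulfate donor PAPS from that sulfate, had 81.8, 116 and 138 CPM in H3K9M and 66.9, 226 and 94.1 CPM in H3WT. Its mean in H3K9M was 112 ± 28.4 CPM and in H3WT 129 ± 85.2 CPM (SD, n = 3 each), and replicate 2 was the high library of H3WT (log2 fold change -0.20, standard error 0.47, adjusted p 0.903). Without that library the sign turned, to 0.49 (adjusted p 0.373). Papss2 supplied 47.1% to 71.9% of the summed level of Papss1 and Papss2 per kilobase, with the highest share again in H3WT replicate 2.

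Ext1 (chr15:53064038-53346159, minus strand), the heparan sulfate polymerase that works as a complex with Ext2, had 121, 74.6 and 104 CPM in H3K9M and 114, 74.3 and 105 CPM in H3WT. The groups were nearly superimposed (log2 fold change 0.03, standard error 0.22, adjusted p 0.975), and the low library in each was the one that was high in Chst11. Its sign turned without H3K9M replicate 1 (-0.13) or H3WT replicate 2 (-0.12).

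Across the 10 genes, 6 had their highest value in H3WT replicate 2, against 19.5% of all tested genes: Xylt1, Csgalnact1, Chst11, Slc26a2, Papss2 and Has2. The first 5 of these stand at the start of chondroitin synthesis or in its sulfation. Of all tested genes of the linkage region, 4 of 7 were highest in H3WT replicate 2, and of sulfate supply 4 of 8. For chondroitin polymerisation it was 2 of 6, and for chondroitin and dermatan sulfation 2 of 9. These 4 lists include 1, 2, 4 and 1 of the 10 genes, in that order, so their counts are not separate from the 6 above. Of the 92 tested pathway genes other than the 10, 25 were highest in H3WT replicate 2. Relative to each gene's mean of the 6 libraries, the first 5 genes were at 1.33, 0.51, 0.87, 0.88 and 1.03 (log2) in H3WT replicate 2. The same genes were at -0.73 to -0.28 in H3WT replicate 1 and at -1.05 to -0.40 in H3K9M replicate 1. Acan was also highest in H3WT replicate 2 (722 CPM) and lowest in H3WT replicate 1 (137 CPM), with 251, 172 and 470 CPM in H3K9M replicates 1, 3 and 5 and 210 CPM in H3WT replicate 4. Acan and Chst11 parted in H3K9M replicate 3, where Acan was at -0.67 and Chst11 at 0.62. All of these genes were read in the same 6 libraries, so the likeness is a description. Chondrocyte markers as a whole moved with H3WT replicate 2 too, as given above, and their part in the pattern was not tested.

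**Figure D2:**
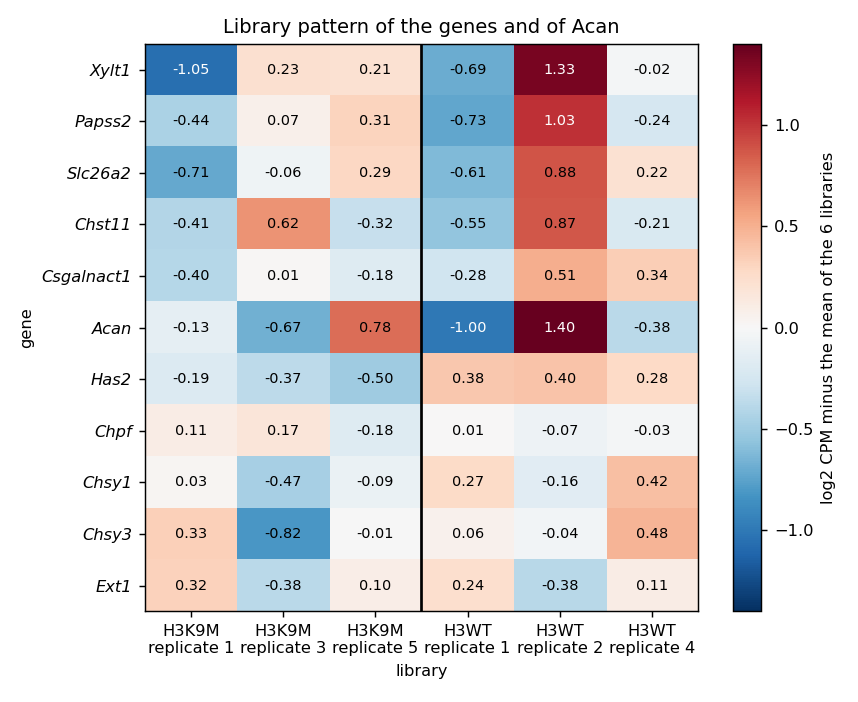
Log2 CPM of each gene minus its mean over the 6 libraries (colour and printed value), for the 10 genes and Acan (rows) in each library (columns), with H3K9M left and H3WT right of the line. The upper 5 genes and Acan are highest in H3WT replicate 2; Has2 is the row whose sign separates the groups.

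**Figure D3:**
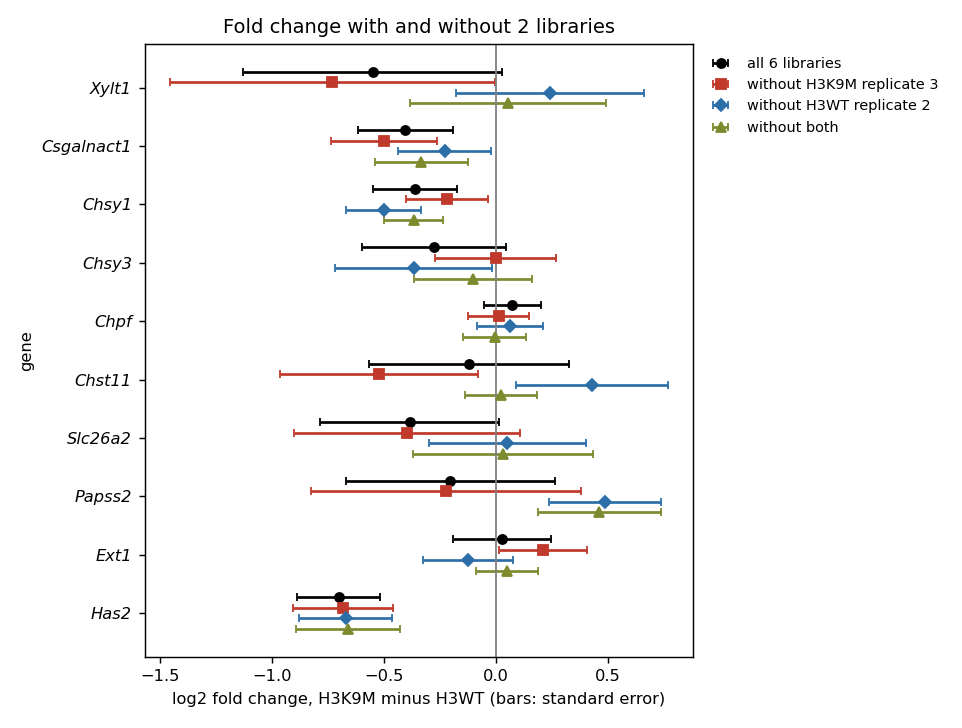
Log2 fold change (x axis, H3K9M minus H3WT, with its standard error) of the 10 genes from all 6 libraries, without H3K9M replicate 3, without H3WT replicate 2, and without both. Has2 stays between -0.70 and -0.66 in these fits, while Chst11 runs from -0.52 to 0.43 and Papss2 from -0.22 to 0.49.

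The 250 bases before the transcription start are shown for genes that had high values in the same library, Chst11 and Papss2, and for Chsy1, which did not. RefSeq's promoter table (GRCm38.p6) held 5 starts for 4 of the 10 genes, these 3 and Chpf. The letters CCGCCC, searched on both strands and known as a GC box, stand in capitals. They occurred in 4 of the 5 windows, against 32.7% of all 32851 windows of the same length. The letters CTTTGT, a core that SOX factors bind, occurred on either strand in 0 of the 5, against 16.5% of all windows.
Chst11 (chr10:82985247-82985496, plus strand): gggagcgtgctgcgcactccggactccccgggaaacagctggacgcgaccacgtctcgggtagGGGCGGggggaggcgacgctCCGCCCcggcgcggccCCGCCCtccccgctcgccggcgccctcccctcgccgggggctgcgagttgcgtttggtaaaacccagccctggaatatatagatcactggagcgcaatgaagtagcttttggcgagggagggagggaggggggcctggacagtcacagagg
Papss2, first start (chr19:32595465-32595714, plus strand): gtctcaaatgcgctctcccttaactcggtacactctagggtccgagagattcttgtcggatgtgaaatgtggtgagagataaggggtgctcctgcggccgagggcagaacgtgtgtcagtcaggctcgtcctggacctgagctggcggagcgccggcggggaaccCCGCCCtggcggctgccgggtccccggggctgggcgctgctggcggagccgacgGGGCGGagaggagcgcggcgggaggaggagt
Papss2, second start (chr19:32619755-32620004, plus strand): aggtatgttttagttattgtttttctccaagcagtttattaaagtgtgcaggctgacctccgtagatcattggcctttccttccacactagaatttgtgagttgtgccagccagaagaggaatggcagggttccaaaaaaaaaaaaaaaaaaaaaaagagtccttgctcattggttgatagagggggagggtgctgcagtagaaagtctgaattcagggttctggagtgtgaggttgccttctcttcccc
Chsy1 (chr7:66109242-66109491, plus strand): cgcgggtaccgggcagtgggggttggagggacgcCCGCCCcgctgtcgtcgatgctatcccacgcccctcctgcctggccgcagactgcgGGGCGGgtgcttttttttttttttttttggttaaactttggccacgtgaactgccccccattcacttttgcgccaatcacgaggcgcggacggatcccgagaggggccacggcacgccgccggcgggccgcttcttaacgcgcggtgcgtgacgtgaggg

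The windows of Chst11, of the first Papss2 start and of Chsy1 were rich in CpG, with 26, 24 and 30 CpG dinucleotides and 70.0%, 67.6% and 65.6% G and C. The second Papss2 start had 1 CpG and 43.2% G and C, against medians of 6 and 52.4% over all windows. Counts per gene do not show which start of Papss2 was used. Chst11 and Chsy1 were alike in these features and differed in their library pattern.

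Levels could be ordered between genes only per length, as CPM per kilobase of exon. By the mean of each group Chpf stood first with 46.8 ± 5.89 in H3K9M and 44.5 ± 1.21 in H3WT (SD, n = 3 each). It was followed by Papss2, Chsy1, Csgalnact1, Chst11 and Ext1, whose ranges overlapped from each gene to the next. Ext1, at 9.19 to 14.97, lay above Has2, at 2.84 to 5.32, in every library. This was the 1 step between neighbours without overlap, since Has2, Slc26a2, Xylt1 and Chsy3 again overlapped in sequence. Chsy3 had the lowest mean, with 1.02 to 2.52. The order holds for merged exons as the length. Slc26a2 has 12370 bases of merged exons and a longest transcript of 7814, and Chsy3 7228 and 4655. An order by longest transcript was not computed.

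**Figure D4:**
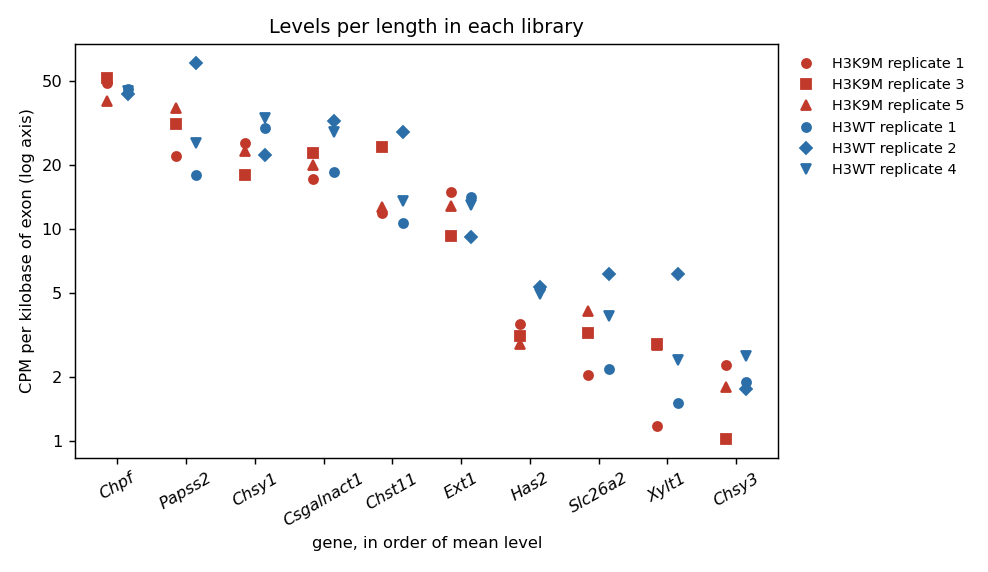
CPM per kilobase of exon (y axis, log scale) of the 10 genes in order of their mean level, in each H3K9M (red) and H3WT (blue) library. A step separates Ext1 (9.19 to 14.97) from Has2 (2.84 to 5.32), and the other neighbours overlap.

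The rest of the pathway was followed in 10 lists, of which 92 genes other than the 10 were tested. None had an adjusted p under 0.05 (edgeR). At an unadjusted p under 0.05, 15 were lower and 1 higher in H3K9M, where 5.77% of all tested genes were lower and 6.42% higher. Their median log2 fold change was -0.18, with 70 lower and 22 higher. The groups did not overlap in 12 lower and 2 higher genes, where 8.68% of all tested genes were lower and 10.7% higher without overlap. Without H3WT replicate 2, 58 of 92 were lower (47% of all genes). In that fit 15 lower and 4 higher had an unadjusted p under 0.05, where 8% of all genes were lower and 9.09% higher at that p. The count of 15 lower genes fell to 7 without H3WT replicate 4, and to 9 without H3K9M replicate 1, without H3K9M replicate 3 or with an offset for GC content and transcript length (3.65%, 4.14%, 4.43% and 4.58% of all genes). With library size alone as the scaling, 61 of 92 were lower, where 43.5% of all genes were.

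By step, the median log2 fold change was -0.32 for chondroitin polymerisation (6 tested), -0.24 for sulfate supply (8), -0.23 for chondroitin and dermatan sulfation (9), -0.21 for heparan polymerisation and modification (16) and -0.18 for the linkage region (7). These medians include genes of the 10: 4, 2, 1, 1 and 1 of them, in the order of the lists. Without H3WT replicate 2 the median of sulfate supply was -0.0061 and that of the linkage region 0.06. The linkage median was also -0.08 without H3K9M replicate 1, -0.10 without H3K9M replicate 5 and -0.30 without H3WT replicate 4, and that of sulfate supply -0.35 without H3WT replicate 1. Chondroitin polymerisation stood at -0.13 without H3K9M replicate 3 and -0.16 without H3WT replicate 4, and heparan at -0.14 without H3K9M replicate 3. The 12 genes of nucleotide sugar supply had a median of 0.06 and the 4 tested genes of keratan sulfate 0.29. All 4 keratan genes were higher in H3K9M in this fit, none with an unadjusted p under 0.05. The keratan median was 0.10 without H3K9M replicate 3, 0.11 without H3WT replicate 4, 0.46 without H3K9M replicate 1 and 0.47 without H3WT replicate 2. That of nucleotide sugar supply was 0.01 without H3K9M replicate 3, 0.03 without H3WT replicate 1, 0.14 without H3K9M replicate 1 and 0.16 without H3WT replicate 2.

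**Figure D5:**
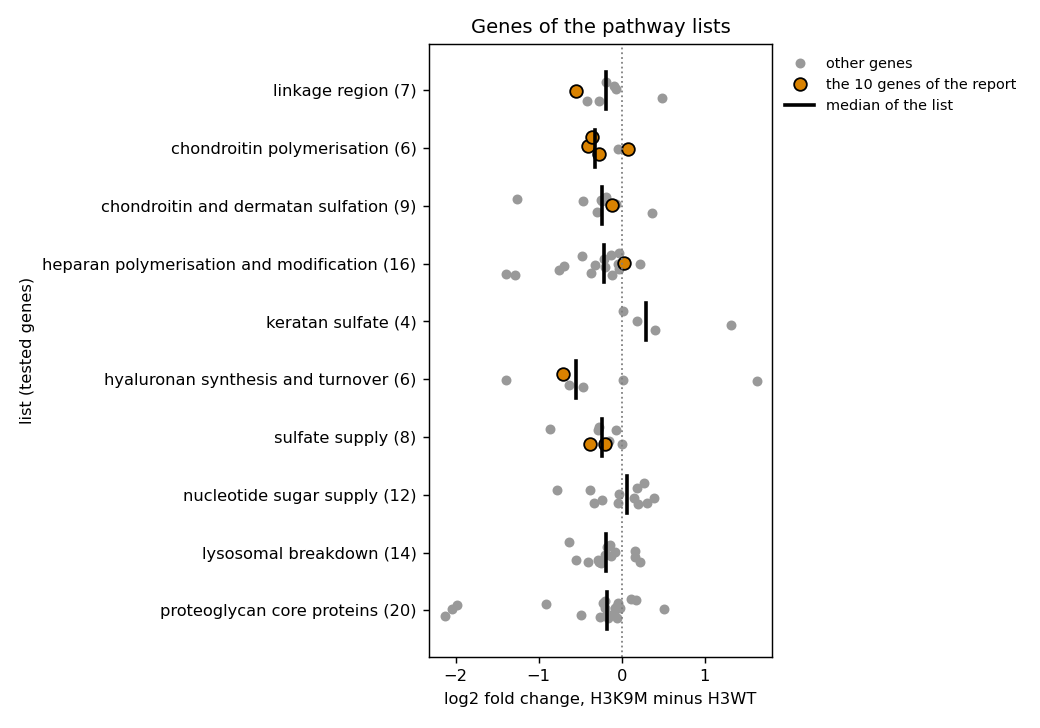
Log2 fold change (x axis, H3K9M minus H3WT) of each tested gene of the 10 pathway lists (rows, number tested in brackets), with the 10 genes of the report in orange and the median of each list as a black line. Medians run from -0.55 (hyaluronan) to 0.29 (keratan sulfate).

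Enzymes from the lists for chondroitin and dermatan sulfation and for heparan were among the genes with an unadjusted p under 0.05 (edgeR). Chst15, which adds a further sulfate to sulfated chondroitin, had 5.09, 1.69 and 3.27 CPM in H3K9M and 9.04, 5.24 and 9.66 CPM in H3WT, without overlap (log2 fold change -1.26, standard error 0.47, adjusted p 0.354, edgeR). Hs6st2, a heparan sulfotransferase, had 231, 139 and 234 CPM against 306, 264 and 453 CPM (log2 fold change -0.76, standard error 0.26, adjusted p 0.326). Dse, the epimerase that turns chondroitin into dermatan, had 172, 149.6 and 179.9 CPM against 207, 196 and 214 CPM (-0.30, standard error 0.12). Also among them, Ndst2, which removes acetyl groups from heparan and sulfates the freed nitrogen, had a log2 fold change of -0.48 (standard error 0.17), and Extl1, a relative of Ext1, -1.39 (standard error 0.59). These 5 genes were named for their p, so that their groups did not overlap is a description.

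In the supply of sugar precursors, enzymes of the hexosamine pathway did not share a sign. Gfpt2, 1 of the 2 enzymes that open that pathway, had 16.4, 11.8 and 16.0 CPM in H3K9M and 22.9, 35.3 and 17.6 CPM in H3WT (log2 fold change -0.78, standard error 0.28, adjusted p 0.342, edgeR). Gfpt1, which catalyses the same step and was several times more abundant, had 132, 158.5 and 149.8 CPM against 155.5, 132 and 160 CPM, with overlap (-0.03, standard error 0.13, adjusted p 0.960). Pgm3, further down, was the 1 pathway gene higher in H3K9M at an unadjusted p under 0.05, with 38.3, 44.8 and 42.5 CPM against 31.6, 30.6 and 33.3 CPM (0.40, standard error 0.14, adjusted p 0.323). Next by p among the higher genes were Pxylp1, which removes the phosphate from the linkage xylose (0.49, standard error 0.28, adjusted p 0.515), and Chst5, a sulfotransferase of keratan sulfate (1.32, standard error 0.78, adjusted p 0.527), which had under 2 CPM in each library.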

How the data were processed

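RNA of 3 H3K9M and 3 H3WT libraries was prepared with a Tecan Universal Plus mRNA kit, as the labels' protocols state. Deposited were raw counts of reads for each gene symbol, not normalized by the authors as judged from whole numbers with unequal totals. The submitters' processing notes list HISAT2, featureCounts and DESeq2 and the build mm10 (GRCm38). Versions, annotation and strand setting are not given in the sources used here. Each column matched 1 sample title.

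Genes kept by filterByExpr (13761 of 35976) were scaled by TMM and tested in R 4.3.3 with edgeR 4.0.16 (quasi-likelihood, robust, genotype as the only term), with Benjamini-Hochberg adjustment over all tested genes and a threshold of 0.05. The standard error is the size of the log2 fold change divided by the square root of F. Log2 CPM used a prior count of 2. Replicates were checked for repeated libraries, and none was found (chi-square per degree of freedom 26.5 to 114). Lengths are merged exons, and positions, overlaps and similar transcripts (blastn 2.17.0, at least 90% over 200 bases, none found for the 10 genes) are from GENCODE M21. Scripts were tested on simulated counts.

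Alternatives were DESeq2 1.42.0, limma-voom (limma 3.58.1), DESeq2 size factors, library size alone, 2 other filters (every gene with a count, and at least 10 counts in every library), a loess offset (span 0.5) on GC content and transcript length, known for 94.3% of tested genes, and leaving out each library. The members, lists and tests were chosen with earlier results of these data known. The rule named the 10 genes, Acan, list genes with an unadjusted p under 0.05, the 3 smallest p-values in each direction, and the 3 genes most like the member with the smallest p in each direction. Paralogues in shares were named beside them. Protein sequences were not used here.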

Additional observations from a re-analysis of the deposited data

How the results depend on the processing

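No paired analysis was possible because the groups share 1 replicate number only. The number of genes past the threshold was 0 as reported, 36 with every gene that had a count, 365 with DESeq2, 302 without H3K9M replicate 3 and H3WT replicate 2 together (chosen after seeing the data), and 0 to 91 when 1 library was left out (91 without H3WT replicate 2, 2 without H3K9M replicate 3). The cause was not tested. In all 14 alternatives 0 of the 10 genes passed. Of these 10, 1 to 2 had an unadjusted p under 0.05 and 5 to 8 a log2 fold change below 0 over the single left-out libraries, and 2 and 5 without the pair of libraries.

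Over the single left-out libraries the log2 fold change ran from -0.52 to 0.43 for Chst11 (0.06 without H3K9M replicate 1 and 0.04 without H3K9M replicate 5), -0.51 to 0.49 for Papss2, -0.54 to 0.0008 for Chsy3, -0.90 to 0.24 for Xylt1, -0.68 to 0.052 for Slc26a2 and -0.13 to 0.21 for Ext1 (-0.12 without H3WT replicate 2). Without the pair it was 0.024 for Chst11, 0.46 for Papss2, -0.0052 for Chpf, 0.054 for Xylt1 and 0.0325 for Slc26a2. Has2, Chsy1 and Csgalnact1 kept their sign in all 14.

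Medians of lists ran from -0.30 to 0.058 (linkage region), -0.35 to -0.13 (chondroitin polymerisation), -0.74 to -0.43 (hyaluronan), -0.35 to -0.0061 (sulfate supply) and 0.012 to 0.16 (nucleotide sugars) over the single left-out libraries. Without the pair they were -0.20 for chondroitin polymerisation and -0.0125 for sulfate supply. The offset for GC content and length gave -0.18 for chondroitin polymerisation and -0.10 for heparan. The keratan sulfate median ran from 0.10 to 0.47 over the single left-out libraries and was 0.10 with every gene that had a count, 0.09 by the DESeq2 test and 0.18 under the stricter filter on low counts. The smallest difference these libraries could show was not computed.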

Other observations

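The proteoglycan core proteins, on which these chains are built, had a median log2 fold change of -0.17 over 20 genes, with 17 lower in H3K9M (-0.11 without H3K9M replicate 1 and -0.07 by limma-voom). Gpc3, a glypican that carries heparan sulfate, had the smallest p of the pathway lists: 9.24, 3.33 and 9.64 CPM in H3K9M replicates 1, 3 and 5 against 26.8, 29.3 and 35.5 CPM in H3WT replicates 1, 2 and 4. The groups did not overlap (log2 fold change -2.05, standard error 0.39, unadjusted p 0.00078, adjusted p 0.171, edgeR). It was 1 of the 365 genes called by DESeq2. Vcan, the large chondroitin sulfate proteoglycan of loose connective tissue, had 100.5, 77.8 and 83.5 CPM against 262, 99.1 and 133 CPM, with overlap at H3WT replicate 2 (log2 fold change -0.92, standard error 0.35, adjusted p 0.371). Sdc2, a syndecan, had a log2 fold change of -0.49 (standard error 0.17) and Gpc2 -1.98 (standard error 0.70), each with overlapping groups. Col9a2, a chain of the type IX collagen of cartilage, had 7.64, 23.5 and 11.9 CPM against 14.7, 100.1 and 74.9 CPM, with overlap at H3WT replicate 1 (log2 fold change -2.13, standard error 0.76, adjusted p 0.357).

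The 14 genes listed for the lysosomal breakdown of glycosaminoglycans had a median of -0.18, with 11 lower. Naglu, which acts on heparan sulfate, was the 1 with an unadjusted p under 0.05, at 25.3, 27.3 and 30.4 CPM in H3K9M and 40.4, 30.3 and 51.3 CPM in H3WT (log2 fold change -0.55, standard error 0.21, adjusted p 0.354, edgeR). H3WT replicate 2 lay just inside the range of H3K9M.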
